A study of Sus scrofa with 16 samples.

Results

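The genes described here encode the G protein-coupled receptors through which the hypothalamus drives or restrains hormone-producing cells of the pituitary. They were chosen by symbol: CRHR1, AVPR1B, GHRHR, GHSR, TRHR, DRD2, SSTR2 and SSTR5, 8 genes in all, each read from the raw gene count table by the symbol that the deposited results table gives or, where that table gives none, by the Ensembl pig name. Of the 8, 7 had a row among the 25880 genes of the table, and each of the 7 had exactly 1 row. GHSR, the ghrelin receptor, is not analysed here, because the only identifier paired with that name is called TNFSF10 by the deposited table and lies outside the RefSeq span of GHSR.

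The libraries came from whole pituitaries of 16 unrelated Puławska gilts, a Polish native breed, from several farms, tested at a single station on a common diet. In 8 gilts, numbered 1 to 8, the feed conversion ratio was low (LFC), and in 8 gilts, numbered 9 to 16, it was high (HFC). The ratio relates feed eaten to weight gained, and the labels name no treatment and no genotype. The labels give an age of 3 months for all animals, whereas the methods of the study give a higher age at slaughter. Each gilt contributed 1 library. The spread within a group therefore joins differences between gilts with those of tissue sampling, library preparation and counting, which cannot be told apart here. Total counts ran from 10972583 in HFC replicate 14 to 23060458 in LFC replicate 6. The libraries that stood apart were LFC replicate 5, the farthest on the first principal component of all genes, and HFC replicate 16, with the most POMC and the least PRL and TSHB.

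In the hypothalamus, neurons release peptides and dopamine into the portal vessels, and each pituitary cell type answers through its own set of receptors. CRHR1, GHRHR and their relatives couple mainly to Gs and raise cyclic AMP, AVPR1B and TRHR couple mainly to Gq and release calcium, and DRD2 and the somatostatin receptors couple to Gi and damp both secretion and cyclic AMP. Corticotrophs and melanotrophs make POMC, somatotrophs make GH1, lactotrophs make PRL and thyrotrophs make TSHB, and the comparison of each receptor with the hormone gene it controls is given below after the comparison of the groups.

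All 7 receptors are single genes on the Sscrofa11.1 assembly, and RefSeq places them as follows. CRHR1 (ENSSSCG00000017313) lies on chromosome 12 from 17251361 to 17306308, and AVPR1B (ENSSSCG00000015639) on chromosome 9 from 66769472 to 66776916. GHRHR (ENSSSCG00000016673) lies on chromosome 18 from 42030505 to 42046178, and TRHR (ENSSSCG00000040768) on chromosome 4 from 28480637 to 28482031. DRD2 (ENSSSCG00000015048) lies on chromosome 9 from 41068618 to 41135262. SSTR2 (ENSSSCG00000017249) lies on chromosome 12 from 7783401 to 7789483, inside the span of SLC39A11, a zinc transporter gene. SSTR5 (ENSSSCG00000033234) lies on chromosome 3 from 40756465 to 40758111, inside the Ensembl model of SOX8. The libraries kept no strand, and only whole gene spans were compared, not exons. Whether reads of the spanning genes were counted for SSTR2 and SSTR5 was therefore not tested. The centred log2 levels of SSTR5 and SOX8 had r = -0.54 (permutation p = 0.0687, 16 libraries), and those of SSTR2 and SLC39A11 had r = 0.27 (permutation p = 0.378), both chosen after the data were seen, and without the 2 farthest libraries these were -0.18 and -0.06.

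No receptor passed the test between the feed conversion groups. With edgeR's quasi-likelihood test over 14319 genes, 0 of the 7 receptors passed an adjusted p of 0.05 with a fold of at least 1.3, beside 0 % of all genes tested. At an unadjusted p under 0.05, 0 of the 7 receptors passed, beside 5.82 % of all genes (834 genes, 4.29 % higher and 1.53 % lower in HFC). DESeq2 called 6 genes over the whole table and none of the receptors. The study, also with DESeq2 at these thresholds, reported many more genes in this breed. The reason for that difference was not tested. By the fitted log2 fold change, 3 receptors were higher and 4 lower in HFC, with a median of -0.16 against -0.01 over all genes, and in all 7 the ranges of the groups overlapped. Levels below are given as CPM, the count of a gene per 1000000 counts of the TMM-scaled library total over the genes tested, and they are compared only within a gene, because no exon lengths were used here.

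**Figure D1:**
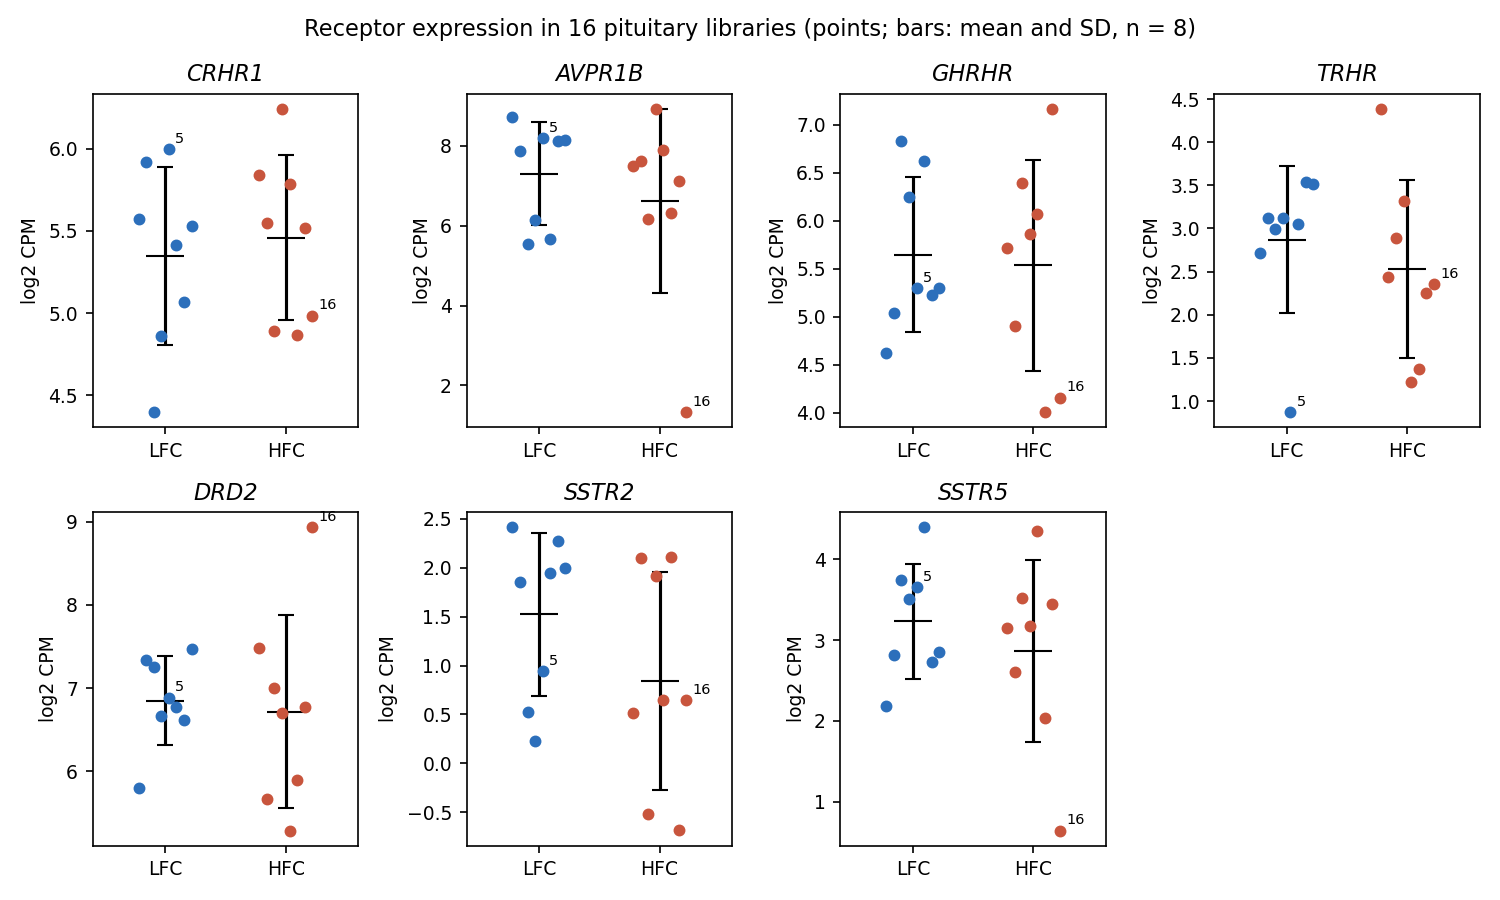
Log2 CPM of each receptor in the 16 libraries, with 1 point per gilt, the groups LFC and HFC side by side, bars for the mean and SD of 8 libraries, and LFC replicate 5 and HFC replicate 16 marked by number. In all 7 panels the points of the groups overlap, and HFC replicate 16 lies at 1.34 for AVPR1B and at 8.94 for DRD2.

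CRHR1, the receptor for corticotropin-releasing hormone on corticotrophs, was the least variable of the 7. In LFC it had a lowest value of 21.0 CPM, a median of 44.3 and a highest of 63.8, and in HFC 29.1, 46.1 and 75.6. LFC replicate 3 was the lowest of all libraries and HFC replicate 12 the highest, and the ranges of the groups overlapped over most of their length. HFC over LFC, the log2 fold change came to 0.11 (SE 0.24), with an adjusted p of 1.0 by edgeR, and 5 of 8 HFC libraries exceeded the mean log2 CPM of LFC. An exact two-sided permutation test over the 12870 assignments of libraries gave p = 0.665.

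AVPR1B, the vasopressin V1b receptor that lets vasopressin add to corticotropin release, varied more than any other receptor. LFC libraries ran from 46.0 CPM (replicate 3) through a median of 257 to 421 CPM (replicate 1). HFC libraries ran from 2.41 CPM (replicate 16) through a median of 160 to 486 CPM (replicate 12). Without HFC replicate 16, whose value rests on 40 counts, the HFC libraries lay between 71.1 and 486 CPM, inside or close to the LFC range. The log2 fold change came to -0.27 with an SE of 0.65 (adjusted p = 1.0 by edgeR), the exact permutation p was 0.542, and 4 of 8 HFC libraries lay above the LFC mean. Whether fewer cells of a type or less RNA per cell lay behind a low value cannot be told apart in whole glands, for this and all other genes.

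GHRHR, the receptor for growth hormone-releasing hormone on somatotrophs, had a lowest, median and highest value of 24.6, 39.2 and 114 CPM in LFC and of 16.0, 55.2 and 144 CPM in HFC. LFC replicates 3, 4 and 6, lay between 75.7 and 114 CPM and the remaining 5 lay between 24.6 and 39.2, while HFC replicate 15 was the highest of all. The fitted log2 fold change came to 0.02 with an SE of 0.43 (adjusted p = 1.0 by edgeR) and the difference of mean log2 CPM was -0.11, of the other sign, with an exact permutation p of 0.816.

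TRHR, the receptor for thyrotropin-releasing hormone on thyrotrophs and lactotrophs, was at 1.71, 8.38 and 11.5 CPM (lowest, median and highest) in LFC and at 2.22, 5.16 and 20.8 CPM in HFC. LFC replicate 5 was the lowest of the 16 libraries with 18 counts, and HFC replicates 13 and 14 followed with 23 and 24 counts. The other 7 LFC libraries stayed between 6.44 and 11.5 CPM. The log2 fold change came to -0.16 with an SE of 0.42 (adjusted p = 1.0 by edgeR), the exact permutation p was 0.487, and 3 of 8 HFC libraries exceeded the mean log2 CPM of LFC.

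DRD2, the dopamine D2 receptor that restrains prolactin release and melanotrophs, had 55.6, 114 and 177 CPM in LFC and 38.9, 107 and 490 CPM in HFC. HFC replicate 16 alone exceeded the highest LFC library by a wide margin, and the other 7 HFC libraries lay between 38.9 and 179 CPM. The fitted log2 fold change came to 0.25 with an SE of 0.43 (adjusted p = 1.0 by edgeR), whereas the difference of mean log2 CPM was -0.13 (exact permutation p = 0.789). Without HFC replicate 16 the fitted value was -0.35, so that 1 library set its sign. In that library PAX7 and PCSK2, a transcription factor and a processing enzyme of melanotrophs, stood at 333 and 2600 CPM against at most 30.9 and 299 CPM in the other HFC libraries. Their part in the DRD2 value was not tested. DRD2 had r = 0.59 with PAX7 (permutation p = 0.0507, rho = 0.31) and r = 0.50 with PCSK2 (permutation p = 0.125, rho = 0.20). Both pairs were chosen after the data were seen, and without the 2 libraries farthest in DRD2 r was 0.08 and 0.06. HFC replicate 16 also had the most RAX, a marker of glial cells of the posterior lobe, at 33.9 CPM against at most 15.1 CPM in the other HFC libraries.

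SSTR2, a somatostatin receptor of somatotrophs, had the fewest counts, from 8 to 107 per library. Its lowest, median and highest values were 1.05, 3.62 and 5.21 CPM in LFC and 0.503, 1.45 and 4.2 CPM in HFC. HFC replicates 11 and 15 were the lowest with 12 and 8 counts, and LFC replicate 1 was the highest in CPM with 85. The log2 fold change of -0.56 (SE 0.46) was the largest of the 7 in size, with an edgeR adjusted p of 1.0, an exact permutation p of 0.196 and 5 of 8 HFC libraries below the LFC mean. At counts this low the values also carry a counting error that is large beside that of the other receptors.

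SSTR5, the other somatostatin receptor of somatotrophs and also present in corticotrophs, had 4.42, 9.17 and 20.9 CPM in LFC and 1.45, 8.84 and 20.3 CPM in HFC. LFC replicate 6 and HFC replicate 13 were the highest, and HFC replicate 16, with 24 counts, the lowest. The log2 fold change came to -0.21 with an SE of 0.41 (adjusted p = 1.0 by edgeR), the exact permutation p was 0.467, and 3 of 8 HFC libraries exceeded the mean log2 CPM of LFC.

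**Figure D2:**
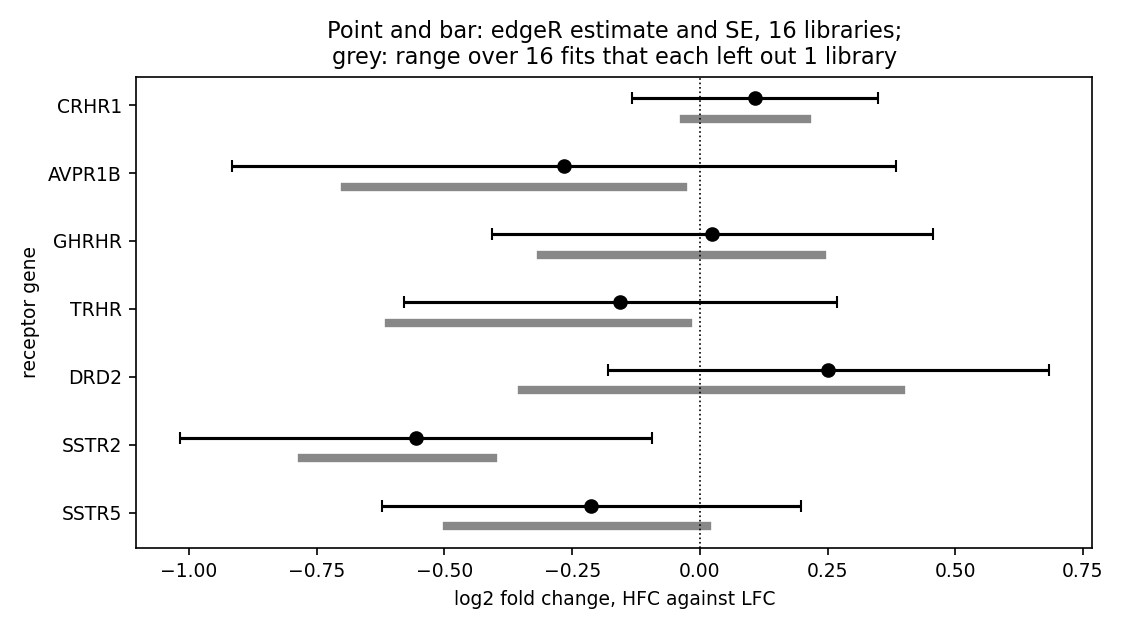
Log2 fold change of HFC over LFC for each receptor from the edgeR fit on 16 libraries (point, with a bar of 1 SE to each side), and in grey the range over the 16 fits that each left out 1 library. Every point lies between -0.56 for SSTR2 and 0.25 for DRD2.

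The receptors varied more between libraries of the same group than most genes did. The SD of log2 CPM within groups was 0.432 for the median gene, 0.522 for CRHR1 (above 62.7 % of genes) and 1.867 for AVPR1B (above 99.3 %), and the other 5 receptors lay above 89.4 to 92.0 % of the genes. The highest library exceeded the lowest 3.6-fold for CRHR1, 9.0-fold for GHRHR, 10.4-fold for SSTR2, 12.2-fold for TRHR, 12.6-fold for DRD2, 14.5-fold for SSTR5 and 202-fold for AVPR1B. Without HFC replicate 16 the values were 4.59-fold for DRD2, 5.24-fold for SSTR5 and 10.6-fold for AVPR1B, and AVPR1B still had the highest SD of the 7, 1.146 (above 95.6 % of genes).

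The hormone genes were compared in the same libraries. POMC was at 26693 ± 22430 CPM in LFC and 68327 ± 72614 in HFC (SD, n = 8), with a log2 fold change of 1.36 (0.70 without HFC replicate 16 and 1.81 without LFC replicate 5), and all 8 HFC libraries exceeded the mean log2 CPM of LFC. PRL was at 37446 ± 25358 CPM in LFC and 10350 ± 11024 in HFC, with a log2 fold change of -1.86, and 7 of 8 HFC libraries lay below the LFC mean. The edgeR adjusted p-values were 0.753 and 0.719. The study listed POMC among its differing genes in this breed and reported by qPCR that its expression went with higher feed conversion. GH1 was at 55376 ± 35853 and 50256 ± 40367 CPM, and TSHB at 497 ± 521 and 301 ± 332 CPM, with 1 count of TSHB in HFC replicate 16.

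Each receptor was then set against the hormone gene it controls, over 9 pairs, by the correlation of log2 CPM centred on the group means. Of the 9, 2 pairs passed an adjusted p of 0.05, and both joined a receptor of somatotrophs with GH1. GHRHR and GH1 had r = 0.90 (permutation p = 1e-05, the smallest the 100000 permutations can give, adjusted p = 9e-05) and rho = 0.86 (permutation p = 9e-05). In LFC r was 0.89 (exact p = 0.00268) and in HFC 0.92 (exact p = 0.0025), so the relation held within each group, also in HFC without replicate 16 (r = 0.89, exact p = 0.0141, 7 libraries). Without the 2 libraries farthest from the median in GHRHR, HFC replicates 14 and 15, r was 0.85. Of all genes tested, 0.0279 % had a correlation with GH1 as far from 0. The extremes of both genes were the same libraries: HFC replicate 15 was highest in both (144 CPM of GHRHR and 132872 CPM of GH1) and HFC replicate 14 lowest (16.0 and 9641 CPM).

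SSTR5 and GH1 had r = 0.77 (permutation p = 0.00088, adjusted p = 0.00396) and rho = 0.78 (permutation p = 0.00089). Within groups r was 0.71 in LFC (exact p = 0.0471) and 0.82 in HFC (exact p = 0.0123), and without the 2 farthest libraries it was 0.67. Within HFC without replicate 16, r was 0.77 with an exact p of 0.0518 over 7 libraries. Of all genes, 0.538 % were as far from 0. SSTR2 lay on the other side, with r = -0.49 to GH1 (permutation p = 0.0715, adjusted p = 0.215), -0.51 in LFC and -0.47 in HFC. SSTR5 and SSTR2, both receptors of the same ligand, therefore had correlations with GH1 of opposite sign, but only the first passed the test and the difference between them was not tested.

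**Figure D3:**
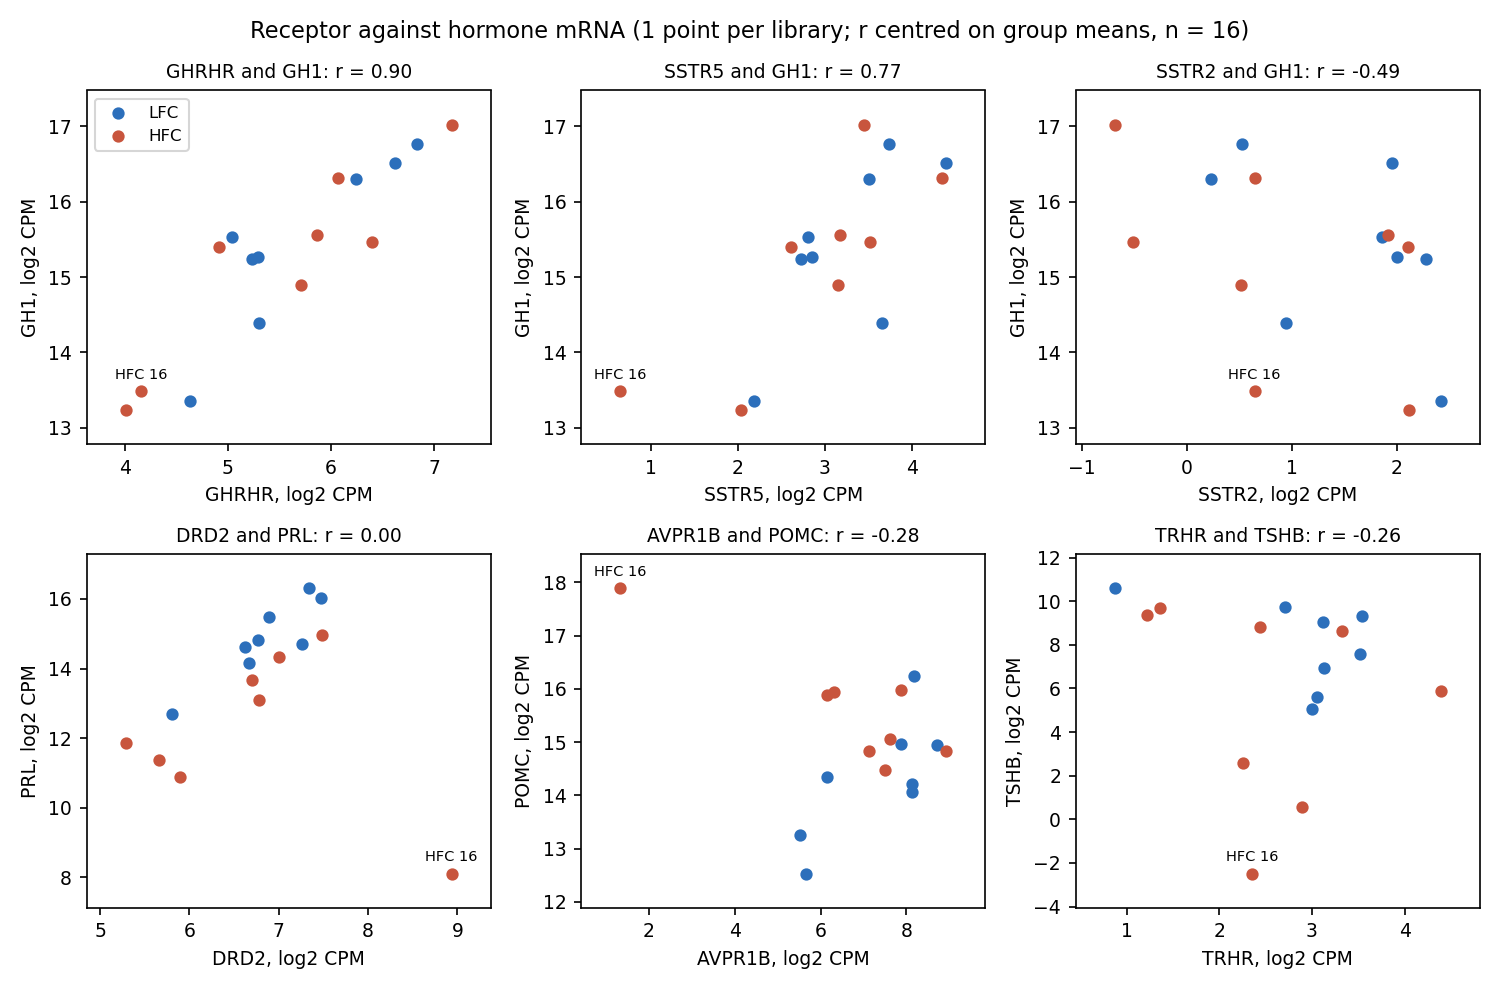
Log2 CPM of each receptor against log2 CPM of the hormone gene for 6 of the 9 pairs, 1 point per gilt, with LFC and HFC in different colours. GHRHR and GH1 are high in the same gilts in both groups (r = 0.90), and HFC replicate 16 stands off the line of DRD2 and PRL.

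DRD2 and PRL had r = -0.00 over all libraries (permutation p = 0.996) but rho = 0.51 (permutation p = 0.0695), and the value turned on 1 library. In LFC r was 0.91 (exact p = 0.00412) and in HFC -0.22 (exact p = 0.6). HFC replicate 16 had the lowest PRL of all libraries (276 CPM, against 1893 CPM for the next) together with the highest DRD2 (490 CPM). Without it r was 0.90 over 15 libraries (permutation p = 5e-05, adjusted p = 0.000405) and rho 0.91, and HFC alone had r = 0.91 over 7 libraries (exact p = 0.00992). Among the libraries left after that choice, gilts with more DRD2 mRNA had more PRL mRNA. LFC replicate 8 (177 and 67186 CPM) and LFC replicate 2 (161 and 81061 CPM) were high in both, and LFC replicate 1 (55.6 and 6639 CPM) was low in both. The value within HFC without replicate 16 was added after the data were seen.

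The receptors of POMC cells had no correlation with POMC that passed over all libraries. AVPR1B and POMC had r = -0.28 (permutation p = 0.287), from 0.73 in LFC (exact p = 0.0358) and -0.88 in HFC (exact p = 0.0152). Without HFC replicate 16, where POMC was at 243007 CPM, the HFC value was -0.50 (exact p = 0.248) and the value over all libraries 0.40. CRHR1 and POMC had r = 0.02 (permutation p = 0.934), with 0.61 in LFC (exact p = 0.105) and -0.64 in HFC (exact p = 0.0826). The difference between groups was not tested for either pair. DRD2 and POMC had r = 0.24 (permutation p = 0.386), and -0.30 without HFC replicate 16. TRHR had r = -0.26 with TSHB (permutation p = 0.39) and 0.41 with PRL (permutation p = 0.153, rho = 0.56 with permutation p = 0.0444), neither past the adjusted threshold.

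Among the 21 pairs of receptors, 2 passed an adjusted p of 0.05. GHRHR and SSTR5 had r = 0.82 (permutation p = 0.00019, adjusted p = 0.00399, rho = 0.87), 0.85 in LFC and 0.80 in HFC, and 0.86 without the 2 farthest libraries. CRHR1 and AVPR1B, the receptors for the drivers of corticotropin release, had r = 0.65 (permutation p = 0.00349, adjusted p = 0.0366, rho = 0.76), and 0.54 without the 2 farthest. Of all genes, 0.3 % lay as far from 0 in the first pair and 4.61 % in the second. In HFC without replicate 16 the first pair had r = 0.77 (exact p = 0.0466) and the second 0.96 (exact p = 0.00278), each over 7 libraries. Leaving out 1 library at a time, the second pair passed in 7 of 16 fits, with r between 0.59 and 0.77, while the first passed in all 16. GHRHR and SSTR2 had r = -0.67 (permutation p = 0.00996, adjusted p = 0.0697) and passed in 3 of 16 such fits. AVPR1B and GHRHR had r = 0.08 over all libraries, with -0.98 in LFC (exact p = 0.00104) and 0.51 in HFC (exact p = 0.203), or 0.14 there without replicate 16. The rank correlation in LFC was weaker, with rho = -0.76 (exact p = 0.0368). These p-values within groups are unadjusted, and the LFC value was singled out from those of the 21 pairs. In LFC the 3 libraries with the most GHRHR, replicates 3, 4 and 6, were those with the least AVPR1B, at 46.0 to 70.6 CPM.

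**Figure D4:**
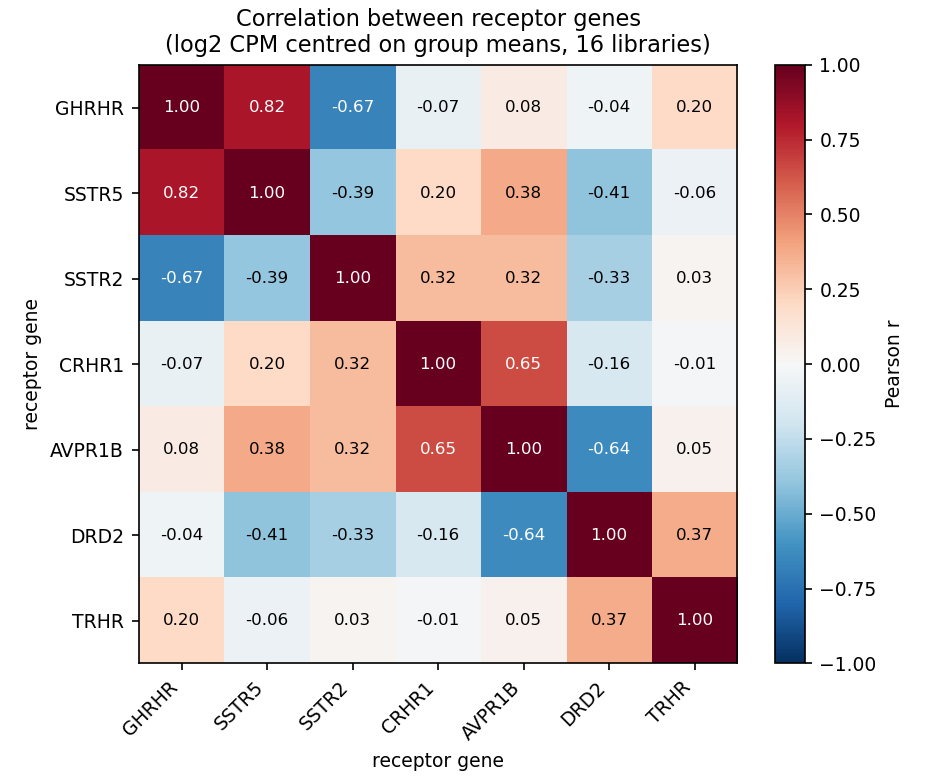
Pearson r of group-centred log2 CPM for each pair of receptors over 16 libraries, written in the cells and coloured from negative to positive. The highest is 0.82 for GHRHR with SSTR5 and the lowest -0.67 for GHRHR with SSTR2.

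The variation between libraries was also set beside depth, the main axis of all genes and the pituicyte list, that is, glial cells of the posterior lobe. Of the 21 pairs, 1 passed: TRHR had r = -0.89 with the first principal component of all genes (permutation p = 7e-05, adjusted p = 0.00147), and rho was -0.69. That component held 41.8 % of the variance, its highest libraries were LFC replicate 5, HFC replicate 13 and HFC replicate 14, and 17.6 % of all genes were as far from 0, so a value of this size was common. No receptor had a correlation with total count that passed. GHRHR had r = -0.68 with the mean log2 CPM of the 6 pituicyte markers (permutation p = 0.00943, adjusted p = 0.099) and TRHR -0.61 (adjusted permutation p = 0.108). The 6 markers (RAX, LHX2, GFAP, AQP4, SLC1A3 and FABP7) averaged from -0.49 to 2.84 in LFC and from 0.14 to 4.64 in HFC on the log2 CPM scale. The highest of these averages was that of HFC replicate 16. In HFC 5 of the 6 were higher, and AQP4 was lower (log2 fold change -0.09). Of the 5, RAX and LHX2 had an unadjusted edgeR p under 0.05, beside 4.29 % of all genes higher in HFC at that p. Their adjusted p-values by edgeR were 0.648 and 0.656. RAX, LHX2 and FABP7 were at 0 in at least 1 library. The part of posterior lobe tissue in the receptor values was not tested. The oligodendrocyte list, another sign of that lobe, ranged from 1.72 to 4.59 in LFC and from 1.26 to 5.93 in HFC.

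The remaining marker lists were as follows on the same scale. The POMC lineage ranged from 5.50 to 6.91 in LFC and from 6.36 to 10.87 in HFC, and the POU1F1 lineage (somatotrophs, lactotrophs and thyrotrophs) from 10.4 to 12 and from 5.93 to 11.15. POMC, TBX19, PCSK2 and PAX7, 4 of the 5 POMC-lineage genes, were higher in HFC at an unadjusted edgeR p under 0.05. The other, PCSK1, was lower, with a log2 fold change of -0.21 (-0.37 without HFC replicate 16). Of all genes tested, 4.29 % were higher in HFC at an unadjusted p under 0.05 (5.82 % in either direction). None of the 4 passed the adjusted test. HFC replicate 16 was the highest library in all 4 and the lowest in PRL and TSHB. Without it the log2 fold change of PCSK2 fell from 5.34 to 3.21 and that of PAX7 from 5.31 to 2.86. That of POMC fell from 1.36 to 0.70 and that of TBX19 from 0.62 to 0.31. Gonadotroph markers ranged from 10.80 to 11.95 and from 8.28 to 11.65, endothelium from 4.90 to 5.80 and from 4.25 to 5.73, macrophages from 3.13 to 5.27 and from 3.74 to 4.97, and the erythrocyte gene HBB from 6.25 to 10.29 and from 6.29 to 9.76.

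**Figure D5:**
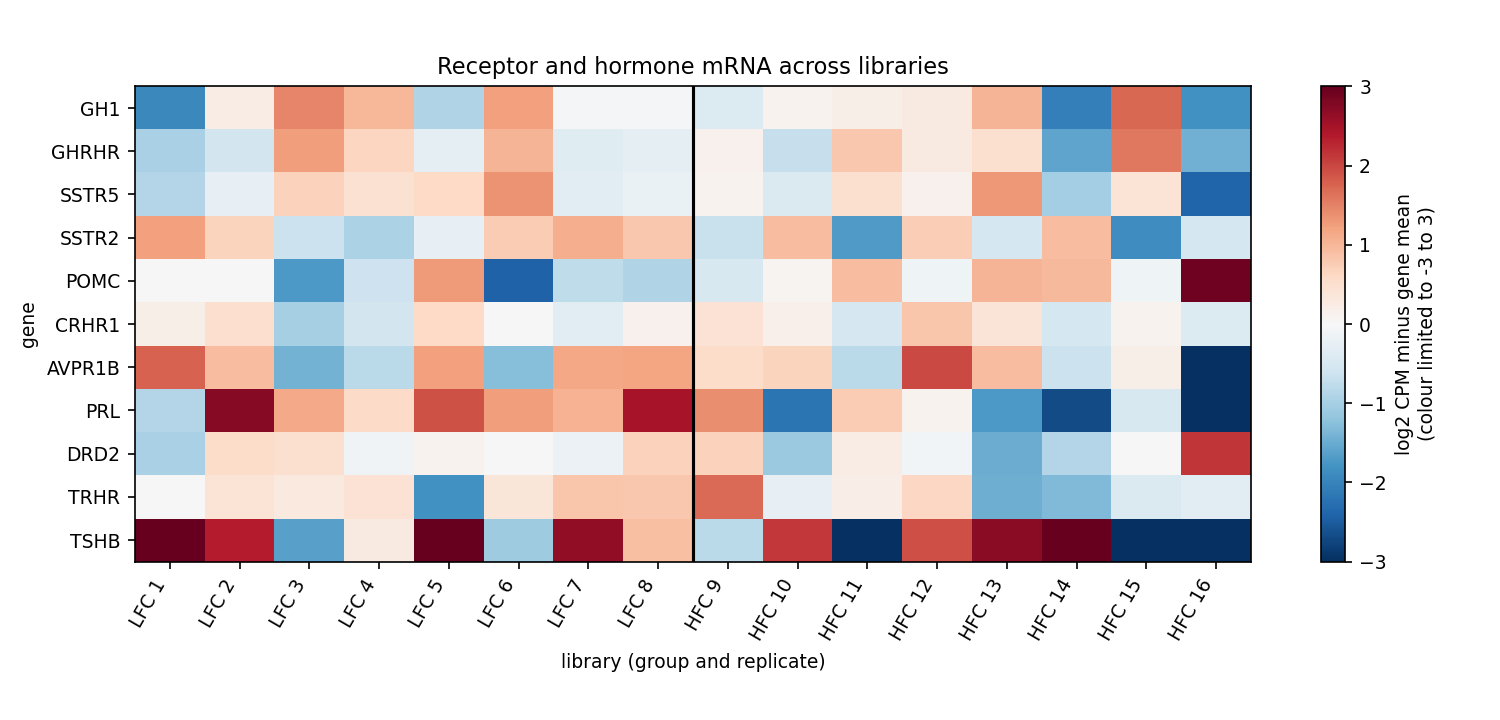
Log2 CPM of the hormone genes and the receptors minus the mean of each gene, in the 16 libraries, with colours limited to -3 and 3. HFC replicate 14 is low in GH1, GHRHR and SSTR5, and HFC replicate 16 is low in AVPR1B, PRL and TSHB and high in POMC and DRD2.

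The ligands of these receptors and the genes that carry their signal were read from lists. Of 12 ligand genes, 9 had a row and 2 were tested. AVP, the vasopressin precursor, was at 4.47 ± 7.59 CPM in LFC and 23.6 ± 24.6 in HFC (SD, n = 8), with a log2 fold change of 2.44 and an SE of 1.19 (adjusted p = 0.873 by edgeR), and DDC, an enzyme of dopamine synthesis, had 0.76 (adjusted p = 0.93). CRH, GHRH, SST and TH stayed below the filter, with at most 0.252, 0.571, 1.64 and 0.285 CPM in any library. Of 17 other receptors for these or related peptides, 9 were tested, 2 higher and 7 lower in HFC with a median of -0.25, and 1 had an unadjusted p under 0.05 (1 of 9, beside 5.82 % of all genes): SSTR3, at 16.1 ± 5.75 CPM in LFC and 10.1 ± 4.44 in HFC (log2 fold change -0.67, edgeR adjusted p = 0.85), with all 8 HFC libraries below the LFC mean. DRD1, the D1 dopamine receptor, had the highest log2 fold change of the list, 0.67, with an adjusted p of 1.0.

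No signal gene passed the adjusted test. Of 27 genes of the Gs and cyclic AMP route, all tested, 15 were higher and 12 lower, with a median of 0.01, and 2 had an unadjusted p under 0.05, 7.41 % beside the 5.82 % of all genes. CREM, a cyclic AMP-responsive transcription factor, had a mean of 40.5 ± 15.7 CPM in LFC and lay below it in all 8 HFC libraries (log2 fold change -0.53, edgeR adjusted p = 0.749), and PDE4C, a phosphodiesterase, had 2.15 (adjusted p = 0.612). HFC replicate 14 had 32.7 CPM of PDE4C, no other library exceeded 2.61 CPM, and the value without that library was 0.38. Of 14 genes of the Gq and calcium route, none passed, and the inositol trisphosphate receptor genes ITPR3 and ITPR1 had the highest and the lowest value, 0.75 (0.27 without HFC replicate 16) and -0.50. Of 9 genes of the Gi route with its potassium channels, 8 were lower in HFC with a median of -0.14, and KCNJ5, a potassium channel subunit, was at 237 ± 75.8 CPM in LFC and 137 ± 56.4 in HFC (log2 fold change -0.78, adjusted p = 0.725 by edgeR). GNAO1, the only one higher, had 0.05, and -0.14 without HFC replicate 16. Of 11 desensitisation genes tested, ARRB1, an arrestin that uncouples receptors, had 1.01 (adjusted p = 0.651 by edgeR), and 0.66 without HFC replicate 16. ARRB2, another arrestin of the list, had 0.09. ARRB1, ITPR3 and GNA14 were among the genes the study picked from these libraries. The study placed GNA14 with POMC in the corticotropin-releasing factor receptor pathway. Here GNA14, of the Gq list, had a log2 fold change of 0.70 (adjusted p = 0.884 by edgeR). RGS4, a regulator of G protein signalling, had -0.62, and -0.38 without LFC replicate 8.

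For each receptor the 2 genes with the most similar pattern over the 16 libraries, by the Spearman correlation of centred log2 CPM, were also identified. CRHR1 lay nearest to KIAA0513 (rho = 0.86) and TP53I11 (0.84), and AVPR1B to ALKAL2, a ligand of the receptor kinase ALK (0.96), and MOSPD1 (0.89). GHRHR lay nearest to ST3GAL4, a sialyltransferase (0.96), and SIGLEC15 (0.93), and TRHR to ARHGAP29 (0.96) and SCYL2 (0.91). DRD2 lay nearest to ITM2A (0.90) and DMRTA1 (0.89), SSTR2 to PCDH1 (0.84) and PDK3 (0.83), and SSTR5 to FBXL2 (0.89) and CIBAR2 (0.88). These are the closest among those of the 14319 tested genes that had a symbol, and so are high by their selection. Genes without a symbol were not ranked.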

How the data were processed

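Pituitary mRNA of 16 gilts was sequenced in technical repeats, with single reads from non-stranded libraries. For these values the authors used FastQC and Flexbar, aligned reads to Sscrofa11.1 with Ensembl models by STAR and RSEM (their methods also name Bowtie 2), and deposited whole-number counts per gene, not normalised, 1 column per library. A second deposited table holds the authors' own comparison (group means, fold, p-values) and was read only for identifiers, symbols and positions. Total counts were 10972583 to 23060458, and low counts carry counting error. The 25880 genes were filtered by expression to 14319 and tested with edgeR 4.0.16 (TMM, quasi-likelihood, R 4.3.3), with Benjamini-Hochberg adjustment over all genes. DESeq2 1.42.0 and limma 3.58.1 (voom), other scalings and filters, and each library left out were alternatives. Log2 CPM used a prior count of 2. Correlations used 100000 permutations within groups in Python 3.11.15, adjusted over each family of pairs, and the fit and the correlation code were tested on simulated data. The receptors and gene lists were chosen with earlier results of these data known. Named genes are mainly the members, their hormone genes and the 2 nearest genes with a symbol of each member. List genes are named mainly at an unadjusted p under 0.05 or with the largest rise or fall. Where GNAS had more than 1 row, that of the deposited table was used. GHSR, levels per length and sequences are not analysed here.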

Additional observations from a re-analysis of the deposited data

Results flagged for a closer look

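In 22 checks, 1 for each group of 8 libraries and each of the 11 receptor and hormone genes, 3 values lay far from the rest of their group by Dixon's test, where 1.1 were expected by chance, and they came from HFC replicate 16 (AVPR1B and POMC) and LFC replicate 5 (TRHR). AVPR1B in HFC replicate 16 was at 1.34 on the log2 CPM scale, against 6.15 to 8.93 in the other 7 HFC libraries. POMC in the same library was at 17.89, against 14.48 to 15.98. TRHR in LFC replicate 5 was at 0.87, against 2.71 to 3.54 in the remaining libraries of that group. The first principal component of all genes was 126.01 in that library, against at most 75.07 in any other.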

How the results depend on the processing

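No paired analysis was possible because the gilts were unrelated and the labels pair no LFC gilt with an HFC gilt. Genes called numbered 6 by DESeq2 and 0 under all other settings, and receptors called or at an unadjusted p under 0.05 numbered 0 under all of them. Genes at an unadjusted p under 0.05 numbered 588 without HFC replicate 16 and 1716 without LFC replicate 5, against 834. Of 167 alternative values of the 7 fold changes, 152 kept their direction and 15 reversed. Leaving out 1 library in turn, the log2 fold change of CRHR1 ran from -0.032 (without HFC replicate 12) to 0.21, of AVPR1B from -0.70 to -0.033 (lowest when HFC replicate 12 and highest when LFC replicate 1 was dropped), of TRHR from -0.61 to -0.023 (HFC replicates 9 and 13), of SSTR2 from -0.78 to -0.40, of GHRHR from -0.31 (without HFC replicate 15) to 0.24, of DRD2 from -0.35 (without HFC replicate 16) to 0.39 and of SSTR5 from -0.50 to 0.014 (without LFC replicate 6). With limma-voom GHRHR was at -0.10 and DRD2 at -0.12, AVPR1B at -0.71, TRHR at -0.37 and SSTR5 at -0.39. Without both LFC replicate 5 and HFC replicate 16, chosen after seeing the data, AVPR1B was at 0.0068 and DRD2 at -0.35. Pairs of receptors past the threshold numbered 1 without centring and 1 to 3 with 1 library left out (1 without LFC replicate 3, 4, 5 or 8 or HFC replicate 9, 10, 13 or 15), against 2. Pairs with depth, pituicytes or the first component numbered 2 with total count scaling and 1 to 2 with 1 library left out (2 without HFC replicate 15), against 1, and receptor and hormone pairs 2 to 3 (3 without HFC replicate 16), against 2. With total count scaling r of CRHR1 and POMC was -0.15 and of DRD2 and PRL 0.043, which was 0.047 without centring. With 1 library left out, r ran from -0.19 to 0.22 for CRHR1 and POMC, from -0.46 to 0.40 for AVPR1B and POMC, from -0.13 to 0.90 for DRD2 and PRL and from -0.30 to 0.33 for DRD2 and POMC. The cause of these changes was not tested. SSTR2 could not be fitted when 10 counts in every library were required. Levels per length, and their alternative with coding length, were not run.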

Other observations

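AVPR1B had r = 0.79 with TSHB, the thyrotropin subunit gene, over the 16 libraries (permutation p = 0.00055, rho = 0.73, permutation p = 0.00305), a pair outside the planned list that was chosen after the data were seen. Without the 2 libraries farthest in AVPR1B r was 0.57. Within HFC without replicate 16, where AVPR1B had 40 counts and TSHB 1, r was 0.49 (exact p = 0.265, 7 libraries). In LFC replicates 3 and 6, the lowest of LFC in AVPR1B (46.0 and 50.6 CPM), TSHB was also lowest, at 33.4 and 49.1 CPM.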
